A study of Mus musculus with 6 samples.

Results

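Of the RNA-binding proteins that control which mRNAs a germ cell keeps, stores or translates, 10 genes were followed, namely *Dazl*, *Boll*, *Nanos2*, *Nanos3*, *Cpeb1*, *Ybx2*, *Ythdc2*, *Meioc*, *Rbm46* and *Ddx4*. They were chosen by known function, with earlier results of these data known. The study had already reported *Dazl* and *Cpeb1* as lower in its knockout testes by RT-qPCR, run to follow up falls in its bulk RNA-seq at postnatal day 12. The 10 genes were found by symbol among the 54232 genes counted in whole testes of mice at postnatal day 12. All 10 passed the filter on low counts that left 20327 genes tested. The study sequenced 3 control testes, whose genotype label is *Dis3l2* WT, and 3 testes with the genotype label *Dis3l2* KO, all on a B6D2F1 background. Per the methods of the study, the KO animals were *Stra8-Cre*; *Dis3l2* F/- and the controls were their littermates. *Stra8-Cre* acts in part of the spermatogonia and in later premeiotic germ cells, so somatic cells and the earliest spermatogonia keep the floxed allele. The study treats the libraries as biological replicates, but whether each came from 1 animal is not given in the sources used here, and p-values measure the spread between these libraries. *Dis3l2* itself did not pass the test in the KO-labelled libraries (log2 fold change 0.22, edgeR adjusted p = 0.136, and -0.27 with libraries scaled to somatic cell markers). Its homolog *Dis3* fell (log2 fold change -1.13, edgeR adjusted p = 2.7e-07, and -1.61 with that scaling), as did 16.5% of all genes tested. The series' design text names *Dis3* in place of *Dis3l2*, and which gene was deleted was not tested. The study reported lower *Dis3l2* mRNA by RT-qPCR and less DIS3L2 protein by immunoblot in KO testes of this age. By in situ hybridization it reported *Dis3l2* absent from premeiotic germ cells and spermatocytes. These assays were not analysed here. The group is called KO-labelled, after its label.

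In germ cells, transcription and translation are often set apart in time. A spermatogonium or spermatocyte makes an mRNA, a bound protein holds it silent, destroys it or lengthens its poly(A) tail, and protein follows at a later stage. DAZL and BOLL belong to the DAZ family, whose members bind U-rich stretches near the 3' end of mRNAs and recruit poly(A)-binding protein. NANOS proteins recruit the CCR4-NOT deadenylase and keep early germ cells from differentiating. CPEB1 directs cytoplasmic polyadenylation, and YBX2 packages and stores mRNAs. YTHDC2, an RNA helicase, acts with MEIOC and RBM46 to remove mitotic transcripts when meiosis begins. DDX4, the mouse homolog of Vasa, is a DEAD-box helicase found in germ cells at nearly all stages.

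The start regions of these genes are shown first because 8 of the 10 genes fell and neither *Nanos2* nor *Nanos3* was called lower. RefSeq promoters of the GRCm38.p6 build, each reaching from 250 bases before the start site to 50 bases after it, were matched for 9 of the 10 genes, with 11 promoters in all. None was matched for *Ythdc2*. The sequences read 5' to 3' on the strand of the gene, and capitals mark matches to CACGTG, an E-box of the type bound by MAX and its partners, and to the E2F-type element TTCCCGCC or its reverse complement. The first 4 are the promoters with CACGTG, and the last 2 belong to the *Nanos* genes. Not shown are the promoters of *Dazl*, *Meioc* and *Ybx2*, which fell and had no CACGTG, and a second *Boll* promoter without it. The *Boll* promoter shown lies wholly outside the gene as counted, which ends at 55363469. They lie at chr1:55363704-55364003 (minus strand, *Boll*), chr7:81454709-81455008 (minus strand, *Cpeb1*), chr13:112652261-112652560 (minus strand, *Ddx4*), chr3:82876434-82876733 (minus strand, *Rbm46*), chr7:18987274-18987573 (plus strand, *Nanos2*) and chr8:84176503-84176802 (minus strand, *Nanos3*).
*Boll*: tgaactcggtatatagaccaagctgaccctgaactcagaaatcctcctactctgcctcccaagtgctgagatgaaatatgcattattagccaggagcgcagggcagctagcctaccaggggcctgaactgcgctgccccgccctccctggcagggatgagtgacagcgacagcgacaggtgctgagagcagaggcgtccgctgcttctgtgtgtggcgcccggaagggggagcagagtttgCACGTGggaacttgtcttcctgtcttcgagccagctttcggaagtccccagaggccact
*Cpeb1*: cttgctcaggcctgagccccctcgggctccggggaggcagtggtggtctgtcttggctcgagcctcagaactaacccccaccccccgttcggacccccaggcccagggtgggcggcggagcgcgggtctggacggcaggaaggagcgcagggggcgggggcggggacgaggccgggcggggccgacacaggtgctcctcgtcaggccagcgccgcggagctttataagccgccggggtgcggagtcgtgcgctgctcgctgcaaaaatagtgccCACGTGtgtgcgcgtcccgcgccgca
*Ddx4*: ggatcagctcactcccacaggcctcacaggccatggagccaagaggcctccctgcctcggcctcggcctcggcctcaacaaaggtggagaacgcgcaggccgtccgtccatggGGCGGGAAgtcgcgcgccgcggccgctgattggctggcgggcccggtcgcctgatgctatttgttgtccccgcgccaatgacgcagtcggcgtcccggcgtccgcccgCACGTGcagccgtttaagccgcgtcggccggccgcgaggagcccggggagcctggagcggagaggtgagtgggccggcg
*Rbm46*: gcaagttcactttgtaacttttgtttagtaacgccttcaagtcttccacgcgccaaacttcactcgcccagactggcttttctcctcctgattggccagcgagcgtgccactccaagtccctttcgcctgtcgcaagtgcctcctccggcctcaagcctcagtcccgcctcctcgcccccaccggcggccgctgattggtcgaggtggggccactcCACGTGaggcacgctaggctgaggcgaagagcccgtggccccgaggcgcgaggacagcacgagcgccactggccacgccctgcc
*Nanos2*: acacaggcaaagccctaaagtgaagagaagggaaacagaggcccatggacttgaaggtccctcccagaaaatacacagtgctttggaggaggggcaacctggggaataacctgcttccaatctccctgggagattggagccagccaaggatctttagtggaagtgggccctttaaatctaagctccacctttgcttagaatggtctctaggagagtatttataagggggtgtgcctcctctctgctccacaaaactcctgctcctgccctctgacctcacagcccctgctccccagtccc
*Nanos3*: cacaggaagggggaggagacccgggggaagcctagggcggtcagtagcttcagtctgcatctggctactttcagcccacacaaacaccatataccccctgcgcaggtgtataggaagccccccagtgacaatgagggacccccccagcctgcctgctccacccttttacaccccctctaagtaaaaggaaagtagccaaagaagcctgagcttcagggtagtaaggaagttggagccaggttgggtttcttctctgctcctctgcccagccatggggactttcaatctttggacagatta

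Both strands of each 300-base window were searched, and a gene counts once where any of its promoters matched (*Boll* and *Ybx2* have 2 each). CACGTG is its own reverse complement, and each match to it is also a match to the general E-box CANNTG. It occurred in promoters of 4 of the 9 genes, *Boll*, *Cpeb1*, *Rbm46* and *Ddx4*, beside 8.09% of the 27025 genes in the promoter table (7.15% of 32851 promoters). Counted from the start site, the match began at base -34 in *Rbm46*, -29 in *Ddx4*, -9 in the *Boll* promoter shown and 25 in *Cpeb1*. The general motif CANNTG was found in 7 of the 9 genes, where 75% of all genes in the table hold it. The E2F-type element TTCCCGCC was present in *Ddx4* and in a second promoter of *Boll*, against 2.52% of all genes. Its variant TTTCCCGC was present in *Meioc*, against 1.24%, and the cAMP response element TGACGTCA, held by 2.03% of all genes, matched 0 of the 9 genes. Among the genes that fell, *Dazl* and *Ybx2* held none of these motifs other than CANNTG. The same was true of *Nanos3*, and *Nanos2* held none at all, so this lack is not particular to the *Nanos* promoters. The GC content of the *Nanos2* and *Nanos3* promoters was 53% and 55.3%, near the median of 52.7% over all promoters, whereas the promoters of the 7 other matched genes had 58.7% to 78%. These matches describe letters in a window and say nothing of binding.

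Of the 10 genes, 8 were lower in the KO-labelled testes, 1 (*Nanos3*) was higher and 1 (*Nanos2*) did not pass the test. Calls are Benjamini-Hochberg adjusted p under 0.05 over all genes tested with edgeR's quasi-likelihood test. By the same rule 32.7% of all genes tested were called, 16.5% lower and 16.2% higher. The median log2 fold change of the 10 genes was -1.48, and that of all genes tested was -0.02. In 8 genes all KO-labelled libraries lay below all control libraries, a pattern met by 23.8% of all genes tested, and in *Nanos3* all lay above, as in 21.7% of them. The 8 genes that fell did so by 2.30-fold (*Ythdc2*) to 5.16-fold (*Cpeb1*).

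RNA of a whole testis mixes germ cells with somatic cells, and in such bulk samples fewer cells of a type and less RNA per cell cannot be told apart. By staining, the study counted fewer DDX4-positive and SYCP3-positive cells per tubule in its knockout testes, over ages that span postnatal day 12. It also reported more apoptotic cells by TUNEL at that age. Those counts were not analysed here. All 8 markers of early spermatocytes fell (median log2 fold change -1.89), from a summed 588 to 760 CPM in controls to 188 to 251 CPM in the KO-labelled libraries (CPM, read counts scaled by TMM to the same library size). All 10 Sertoli cell markers rose, from a summed 5752 to 6058 CPM to 9102 to 9834 CPM, though only 2 of them did with libraries scaled to the markers of somatic cells. Sertoli cell markers are among those that set this scaling, so it takes out part of their own rise by construction. Of 9 markers of undifferentiated spermatogonia, 5 rose and 4 were not called (2 rose and 2 fell under that scaling), with summed levels of 268 to 275 CPM in the control and 315 to 385 CPM in the KO-labelled libraries. Of 5 markers of differentiating spermatogonia, 3 fell (5 under that scaling), from a summed 504 to 538 CPM to 174 to 214 CPM. In these 4 lists no marker was at 0 in every library. Of the 4 spermatid markers, 3 stayed under 1 CPM in every library, and the 4 together summed to 1.07 to 2.04 CPM. The part of these cell type differences in the results that follow was not tested.

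**Figure D1:**
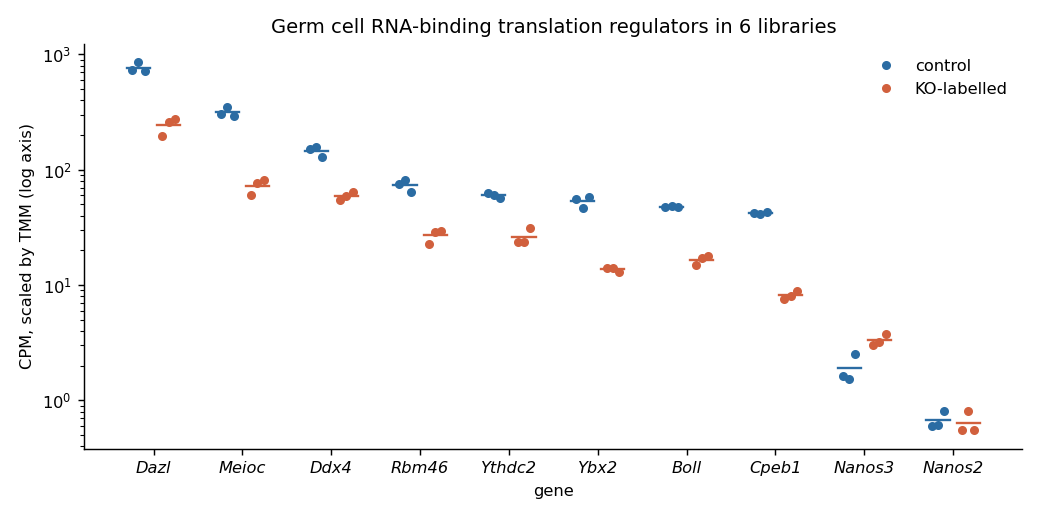
Level of each of the 10 genes in each library, in CPM scaled by TMM on a log axis, with 3 control libraries in blue, 3 KO-labelled libraries in red and a line at each mean. The KO-labelled libraries lie below the control libraries for 8 genes, above them for *Nanos3* (3.05 to 3.77 against 1.53 to 2.52 CPM), and overlap with them for *Nanos2*, where 2 of the 3 KO-labelled libraries lie below all controls.

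*Dazl*, which licenses germ cells to differentiate and activates translation in spermatogenic cells, was the most abundant of the 10 per length. The gene (ENSMUSG00000010592.8, chromosome 17, 50279394 to 50293599 on GRCm38, minus strand) measured 734, 852 and 714 CPM in controls against 195, 258 and 275 CPM in KO-labelled testes. The groups were far apart: the highest KO-labelled library did not reach the lowest control library. The gene fell by 1.66 on the log2 scale (SE 0.12, edgeR adjusted p = 1.8e-07), or 3.16-fold lower.

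*Boll*, the ancestral member of the DAZ family, is needed in mice for spermatids to mature. Its gene (ENSMUSG00000025977.15, chromosome 1, 55248658 to 55363469, minus strand) measured 47.2, 48.4 and 47.5 CPM in controls against 14.9, 17.1 and 17.9 CPM in KO-labelled testes. The control libraries differed by a coefficient of variation of only 1.40%, and the groups did not overlap. *Boll* fell by 1.52 on the log2 scale (SE 0.10, edgeR adjusted p = 1.0e-07), so both DAZ family genes fell to about the same share of the control, 31.7% for *Dazl* and 34.9% for *Boll*.

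*Cpeb1* showed the deepest fall of the 10. CPEB1 controls polyadenylation of mRNAs of the synaptonemal complex in meiotic germ cells. Its gene (ENSMUSG00000025586.17, chromosome 7, 81347026 to 81455465, minus strand) measured 42.1, 41.0 and 42.9 CPM in controls against 7.51, 8.03 and 8.88 CPM in KO-labelled testes. Replicates were tight in both groups, and the KO-labelled mean was 19.4% of the control mean. The log2 fold change was -2.37 (SE 0.11, edgeR adjusted p = 4.9e-09), which ranks 172 among all 20327 genes tested, counted from the deepest fall.

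*Ybx2*, a Y-box protein that stores mRNAs in meiotic and later germ cells, measured 56.2, 46.9 and 58.3 CPM in controls against 14.0, 13.9 and 13.1 CPM in KO-labelled testes (ENSMUSG00000018554.13, chromosome 11, 69935796 to 69941605, plus strand). No KO-labelled library came near the lowest control library. It fell by 1.97 on the log2 scale (SE 0.11, edgeR adjusted p = 1.5e-08). The coefficient of variation was 11.3% among controls and 3.68% among KO-labelled libraries.

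The 3 genes of the complex that acts at meiotic entry all fell, but by unequal amounts. *Meioc* (ENSMUSG00000051455.13, chromosome 11, 102663716 to 102682237, plus strand), which encodes the meiosis-specific partner of YTHDC2, measured 306, 350 and 290 CPM in controls against 60.4, 76.4 and 81.2 CPM in KO-labelled testes. *Rbm46* (ENSMUSG00000033882.15, chromosome 3, 82837228 to 82876483, minus strand), whose protein binds mRNAs and is required for germ cells to enter meiosis, had 74.5, 81.6 and 64.6 CPM against 22.8, 28.9 and 29.7 CPM. *Ythdc2* (ENSMUSG00000034653.11, chromosome 18, 44827746 to 44889724, plus strand) had 63.1, 60.9 and 56.8 CPM against 23.7, 23.6 and 31.3 CPM. In each of the 3 genes the groups were separate, and KO replicate 3 had the highest of the KO-labelled values. The log2 fold changes from edgeR were -2.12 for *Meioc* (SE 0.11, adjusted p = 9.5e-09), -1.44 for *Rbm46* (SE 0.12, adjusted p = 6.7e-07) and -1.20 for *Ythdc2* (SE 0.11, adjusted p = 3.0e-06). Within a library, *Meioc* had 4.85, 5.74 and 5.10 counts per *Ythdc2* count in controls, but 2.55, 3.23 and 2.60 in the KO-labelled libraries. That ratio within a library does not depend on the scaling between libraries, and its groups did not overlap.

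*Ddx4*, often used to mark germ cells as a whole, measured 151, 158 and 129 CPM in controls against 54.1, 59.8 and 64.3 CPM in KO-labelled testes (ENSMUSG00000021758.14, chromosome 13, 112598333 to 112652475, minus strand). Each KO-labelled library was below each control library. The log2 fold change was -1.30 (SE 0.10, edgeR adjusted p = 2.5e-07), leaving 40.7% of the control mean. Among the 8 genes that fell, only *Ythdc2* kept a larger share, 43.4%.

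*Nanos2* and *Nanos3* were the only ones of the 10 genes not called lower. *Nanos2*, which holds spermatogonial stem cells undifferentiated, measured 0.605, 0.612 and 0.818 CPM in controls against 0.550, 0.817 and 0.550 CPM in KO-labelled testes (ENSMUSG00000051965.8, chromosome 7, 18987400 to 18988962, plus strand). These levels rest on 20 to 36 counts per library, and the groups overlapped. The log2 fold change was -0.08 (edgeR adjusted p = 0.908) with a 95% interval of -1.04 to 0.87, so changes within that span, in either direction, remain compatible with these counts. None of the 8 genes that fell had a log2 fold change inside it, but the 95% interval of *Ythdc2*, -1.45 to -0.96, overlapped it.

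*Nanos3*, needed for primordial germ cells to survive and later found in early spermatogonia, measured 1.64, 1.53 and 2.52 CPM in controls against 3.05, 3.20 and 3.77 CPM in KO-labelled testes (ENSMUSG00000056155.6, chromosome 8, 84173731 to 84185217, minus strand). All KO-labelled libraries were above all control libraries, on 57 to 144 counts each. The log2 fold change was 0.81 (SE 0.26, edgeR adjusted p = 0.0245, 95% interval 0.26 to 1.36). This call was lost without control replicate 1 (0.72, edgeR adjusted p = 0.0864), without control replicate 2 (0.71, adjusted p = 0.0771) or without KO replicate 3 (0.73, adjusted p = 0.0644), and over the other 11 alternatives the log2 fold change ran from 0.32 to 1.08. The lowest of these came with libraries scaled to somatic cell markers (0.32, edgeR adjusted p = 0.369), a scaling that moved the median of all genes from -0.02 to -0.51. On the same strand the annotated gene also spans *Mir181c* and *Mir181d*, and reads lying in more than 1 gene were not counted.

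**Figure D2:**
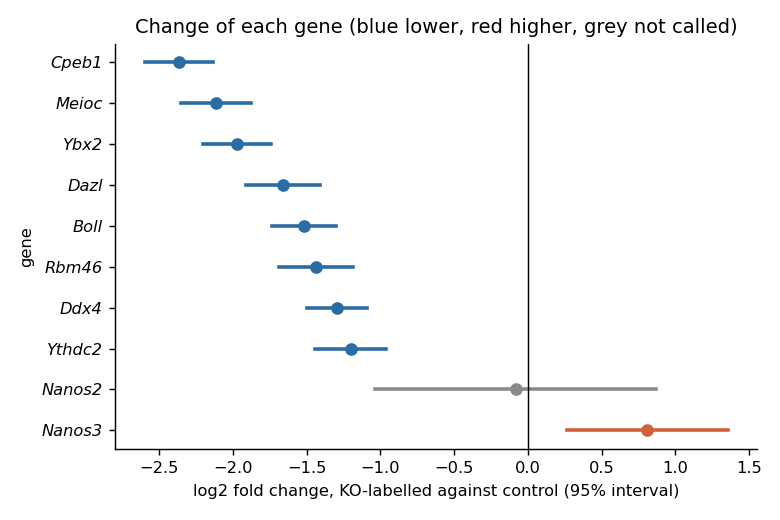
Log2 fold change of each gene in KO-labelled against control testes with its 95% interval from the quasi-likelihood fit, sorted from the deepest fall. The 8 genes in blue run from -2.37 (*Cpeb1*) to -1.20 (*Ythdc2*), the interval of *Nanos2* in grey spans 0, and *Nanos3* in red lies at 0.81.

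Levels between genes were compared per length, as TPM (counts divided by gene length and scaled to the same sum in each library). In the control, *Dazl* stood highest at 913 ± 70.9 TPM (SD, n = 3), followed by *Meioc* at 239 ± 18.4, *Ddx4* at 169 ± 13.7, *Rbm46* at 103 ± 9.57 and *Ybx2* at 100.2 ± 13.4 TPM. *Boll* (47.6 TPM), *Cpeb1* (35.2 TPM), *Ythdc2* (23.8 TPM), *Nanos3* (7.24 TPM) and *Nanos2* (1.53 TPM) completed the order. Of all neighbours in it, only *Rbm46* and *Ybx2* overlapped between libraries. *Dazl* alone made up 52.5% to 57.0% of the summed TPM of the 10 genes in every library, although that sum was 1579 to 1744 TPM in the control and 416 to 554 TPM in the KO-labelled libraries.

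In the KO-labelled libraries the order of these levels per length was rearranged below *Dazl* (273 ± 48.2 TPM, SD, n = 3). *Ddx4* (65.2 TPM) was now above *Meioc* (52.1 TPM), with no overlap between their libraries. *Nanos3* (12.0 TPM) had moved above *Cpeb1* (6.43 TPM) with no overlap, and beside *Ythdc2* (9.76 TPM), with which it did overlap. In the control *Cpeb1* mRNA was at 35.2 TPM and *Nanos3* mRNA at 7.24 TPM, so these 2 genes changed places. *Nanos2* stayed the lowest, at 1.35 TPM.

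**Figure D3:**
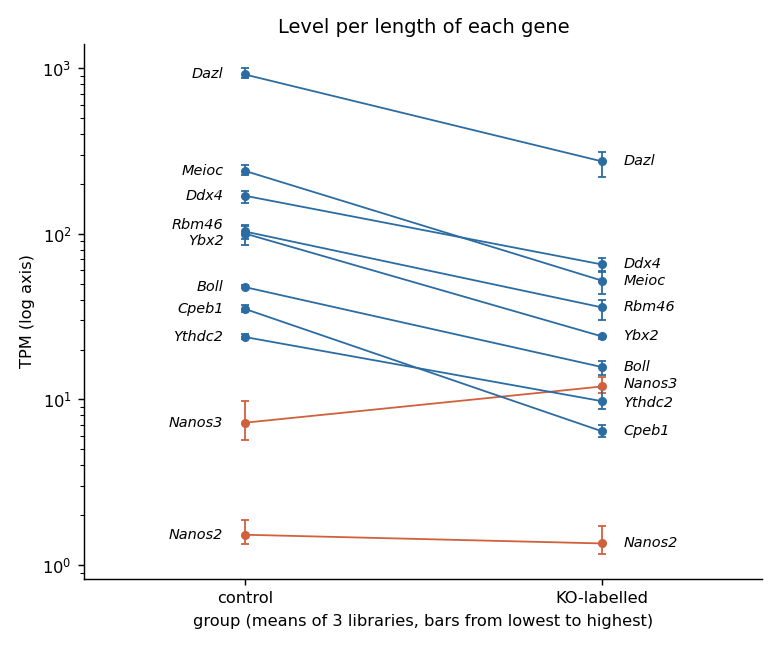
Mean TPM of each gene in the 2 groups on a log axis, with bars from the lowest to the highest of 3 libraries and both *Nanos* genes in red. *Dazl* is highest in both groups (913 and 273 TPM), while *Nanos3* crosses *Cpeb1* and *Ythdc2*, and *Ddx4* crosses *Meioc*.

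To ask whether the genes moved by the same factor as *Ddx4*, each was divided by *Ddx4* within its own library. This takes out both the scaling and any change shared with *Ddx4*. Of the 9 log2 ratios, 6 were lower in all KO-labelled libraries than in all control libraries, 2 were higher and 1 overlapped. *Ddx4* itself had a log2 fold change of -1.30, while the median of all genes tested was -0.02. A gene that did not change would thus also have a higher ratio, and the share of all genes with such ratios was not computed. The 9 markers of undifferentiated spermatogonia had a median of 0.60 (0.10 with libraries scaled to somatic cell markers), so *Ddx4* did not follow every germ cell stage. The part of stage differences in these ratios was not tested. The differences in log2 ratio were -1.08 for *Cpeb1*, -0.83 for *Meioc*, -0.67 for *Ybx2* and -0.38 for *Dazl*. *Boll* and *Rbm46* differed by less, at -0.23 and -0.15. *Ythdc2* had log2 ratios to *Ddx4* of -1.27 ± 0.10 (SD, n = 3) among controls and -1.19 ± 0.15 among KO-labelled libraries, which overlapped (exact permutation test, two-sided p = 0.5). The ratio of *Nanos2* was higher by 1.20 and that of *Nanos3* by 2.14. For these 8 ratios without overlap the exact permutation test gave a two-sided p = 0.1, the smallest that 3 libraries against 3 allow over 20 arrangements, and 0.1125 after Benjamini-Hochberg adjustment over the 9 ratios, so no ratio could pass 0.05.

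With *Dazl* in place of *Ddx4* as the reference, the differences of *Boll* (0.15) and *Rbm46* (0.23) turned positive, since both fell less than *Dazl*, and the groups overlapped for *Boll*. The ratios of *Cpeb1*, *Meioc* and *Ybx2* stayed negative with *Dazl* as the reference (-0.70, -0.45 and -0.30). The groups did not overlap for *Cpeb1* and *Meioc* (exact permutation test, two-sided p = 0.1 each, again the smallest possible), but they did for *Ybx2* (p = 0.2 in the same exact test).

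**Figure D4:**
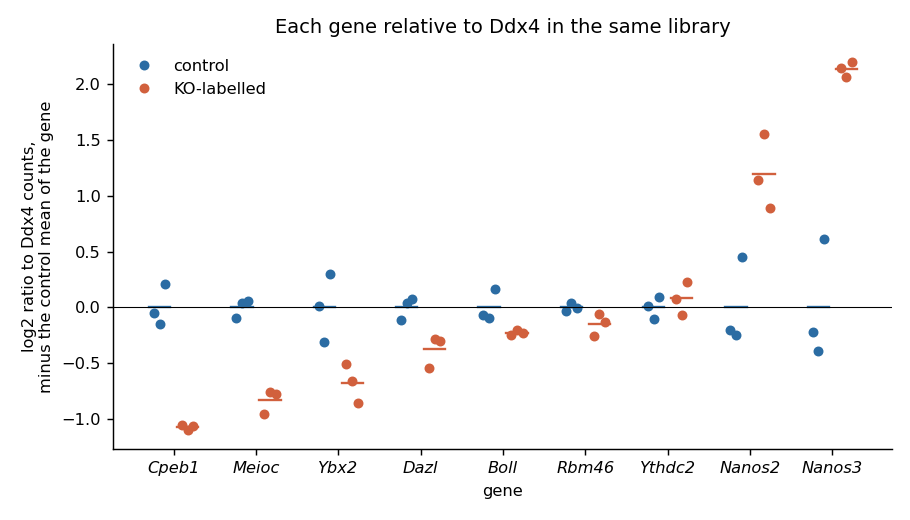
Log2 ratio of each gene's counts to *Ddx4* counts in the same library, minus the control mean of that gene, with points for the 3 control (blue) and 3 KO-labelled (red) libraries and a line at each mean. *Cpeb1* lies lowest at -1.08, *Ythdc2* overlaps the control, and *Nanos2* (1.20) and *Nanos3* (2.14) lie above it.

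The genes whose profile over the 6 libraries was most like that of each gene were found among 11357 other protein-coding genes with a mean of at least 5 CPM, by the root mean square difference of their log2 CPM after each profile was centred. The group difference is the main feature these profiles share, so likeness largely describes the size of the fall. For *Ddx4* these were *Neto2* (0.030) and *Pcgf5* (0.041), and *Pcgf5* was also second for *Rbm46* (0.083), after *Caprin2* (0.077). *Bard1* (0.036), a partner of BRCA1, and *Ccne1* (0.050), which encodes cyclin E1, lay nearest to *Ythdc2*. For *Dazl* they were *Pet2* (0.059) and *Nr6a1* (0.067), the latter encoding the germ cell nuclear factor. *Boll* was followed by *Ska3* (0.060) and *Zcwpw1* (0.064), a histone reader of meiotic cells. *Cpeb1* was followed by *Dpep3* (0.068) and *Sycp2* (0.094), the latter a component of the synaptonemal complex. The nearest to *Meioc* were *Tmem56* (0.054) and *Cnksr2* (0.055), and to *Ybx2* they were *Cntd1* (0.10), needed for meiotic crossovers, and *Adgrb1* (0.11). *Nanos2* matched *Sec61b* (0.075) and *Rps27a* (0.077), which barely differed between the groups. *Nanos3* matched *Gpd1* (0.11) and *Nckap5l* (0.11), whose log2 fold changes were 0.72 and 0.77.

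Relatives of the 10 genes in the same protein families, many of them used by most cell types, were followed in a list of 13, of which 12 were tested and *A1cf* was too low. Of these, 4 fell, 3 rose and 5 were not called, with a median log2 fold change of -0.04 beside -1.48 for the 10 genes and -0.02 for all genes. *Nanos1*, the third gene of the NANOS family, measured 17.7, 15.3 and 13.9 CPM in controls against 5.56, 4.60 and 7.96 CPM in KO-labelled testes. It fell by 1.37 on the log2 scale (edgeR adjusted p = 6.9e-05), while *Nanos3* was called higher (not so with libraries scaled to somatic cell markers) and *Nanos2* was not called. *Cpeb4*, another cytoplasmic polyadenylation factor, fell by 0.54 (edgeR adjusted p = 3.3e-04), while *Cpeb1* had a log2 fold change of -2.37. *Ddx3x*, a DEAD-box helicase of all cells, changed by a log2 fold of 0.51 (edgeR adjusted p = 2.7e-04), opposite in sign to *Ddx4*, and *Rbm47*, a paralog of *Rbm46* found in epithelia, one of 0.63 (adjusted p = 0.00202). Scaled to somatic cell markers, 9 relatives were lower and 0 were higher, and *Ddx3x* (0.027) and *Rbm47* (0.13) did not pass the test. The median of the relatives was then -0.52, beside -0.51 for all 20327 genes tested, of which 9550 were lower and 269 higher.

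Partners, meaning the deadenylases, poly(A)-binding proteins, repressors and m6A writers through which these proteins act, were mostly not called. Of 12 partners tested, 3 fell and 9 were not called, beside 16.5% of all genes tested called lower and 32.7% called in either direction, and the median log2 fold change was -0.06. *Eif4enif1*, a translational repressor of germ cells, fell by 0.34 on the log2 scale (edgeR adjusted p = 0.00404), and *Pabpc1*, the main cytoplasmic poly(A)-binding protein, by 0.26 (adjusted p = 0.0166). The number of partners called lower was 1 without control replicate 1, without control replicate 2 or without KO replicate 2. It was 12, with a median of -0.54, when libraries were scaled to somatic cell markers. Under that scaling the median of all genes tested was -0.51, and 9550 of 20327 were lower.

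Other RNA-binding proteins with known roles in germ cells were split. Of 11 tested, 7 fell, 2 rose and 2 were not called, beside 16.5% of all genes tested called lower and 16.2% higher. The median log2 fold change was -0.87. In each of the 7 that fell the groups did not overlap, a pattern met by 23.8% of all genes tested. *Ptbp2*, a splicing regulator of spermatocytes, fell by 0.96 on the log2 scale (edgeR adjusted p = 1.3e-06), and *Adad1*, a double-stranded RNA-binding protein of the testis, by 1.19 (adjusted p = 2.7e-06). *Msi2* and *Msi1*, the Musashi translational regulators, had log2 fold changes of 0.47 (edgeR adjusted p = 2.8e-04) and 0.56 (adjusted p = 0.00216). Both calls were lost with libraries scaled to somatic cell markers (-0.017 for *Msi2* and 0.076 for *Msi1*). The summed level of this list was 978 to 1046 CPM in the control and 842 to 1016 CPM in the KO-labelled libraries, so its groups overlapped. Those of the 10 genes (1406 to 1640 against 396 to 525 CPM) did not. Abundant genes weigh on both sums. Mean levels in control and KO-labelled libraries were 186 and 273 CPM for *Msi1*, 227 and 314 CPM for *Msi2*, and 767 and 243 CPM for *Dazl*.

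Finally, 8 mRNAs known as targets of these proteins were examined, of which 6 were tested because *Prm1* and *Prm2*, the protamine mRNAs that YBX2 stores in spermatids, were below the filter. Of the 6, 5 fell and 1 was not called, beside 16.5% of all genes tested called lower, with a median log2 fold change of -1.32. *Sycp3*, a synaptonemal complex gene bound by DAZL and CPEB1, measured 77.2, 101 and 68.9 CPM in controls against 17.5, 18.6 and 20.2 CPM in KO-labelled testes, and its log2 fold change was -2.13 (edgeR adjusted p = 4.2e-08). *Sycp1*, its partner in the complex, had 538, 590 and 476 CPM against 139, 162 and 186 CPM, a log2 fold change of -1.72 (adjusted p = 6.3e-08). In both genes every KO-labelled library was far below every control library. *Tex19.1*, a DAZL target that guards the germ line against retrotransposons, measured 12.8, 15.7 and 16.2 CPM in controls against 17.7, 19.0 and 17.6 CPM in KO-labelled testes (log2 fold change 0.28, edgeR adjusted p = 0.107, or -0.21 with libraries scaled to somatic cell markers).

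*Ccna2*, the cyclin A2 mRNA that YTHDC2 and MEIOC remove at meiotic entry, measured 153, 176 and 160 CPM in controls against 80.5, 77.1 and 90.2 CPM in KO-labelled testes. It fell by 0.98 on the log2 scale (edgeR adjusted p = 1.5e-06), as *Meioc* and *Ythdc2* also fell. *Taf7l* and *Sohlh2*, germ cell transcription factors whose mRNAs NANOS2 represses, fell by 1.66 (edgeR adjusted p = 4.3e-07) and 0.84 (adjusted p = 2.4e-04), while *Nanos2* was not called. These are steady-state mRNA levels of whole testes, and neither translation nor decay was measured.

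**Figure D5:**
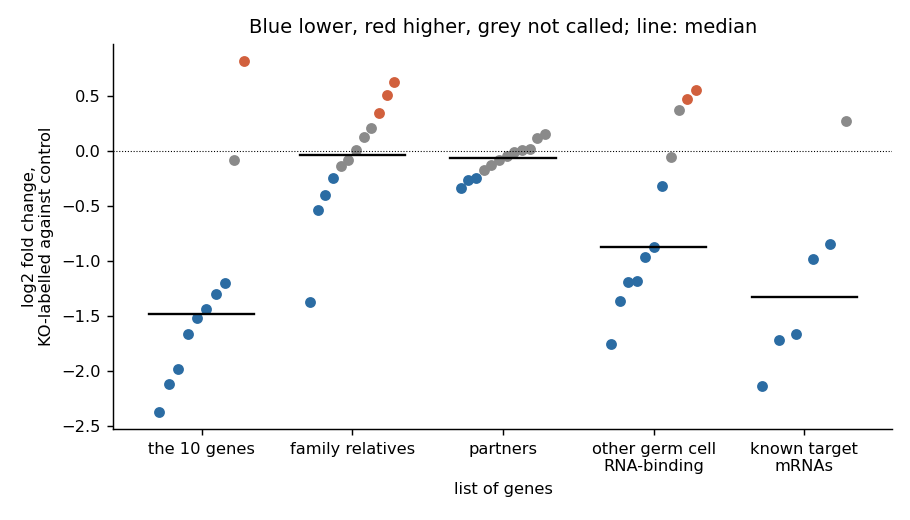
Log2 fold changes of the tested genes of each list, sorted within it, in blue where lower, red where higher and grey where not called, with a line at the list's median. The medians lie at -1.48 for the 10 genes, -0.04 for family relatives, -0.06 for partners, -0.87 for other germ cell RNA-binding proteins and -1.32 for target mRNAs.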

How the data were processed

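RNA of whole testes was sequenced by the study as strand-selected libraries depleted of targeted transcripts. Trimming used cutadapt and alignment HISAT2 (GRCm38.p5, per the labels). The authors counted reads per gene with featureCounts 1.6.4 over GENCODE M18. The deposited values are raw counts, stranded and without reads that belong to several genes or places, so overlapping genes lose reads. Groups came from the genotype labels. Totals were 33325483 to 44956193 counts per library, and 0 value columns were left unused. Names came from GENCODE M21, which held 54165 of 54232 identifiers.

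Counts were tested across all genes with edgeR 4.0.16 in R 4.3.3 (TMM, filterByExpr, glmQLFit, glmQLFTest), with the standard error taken as the size of the log2 fold change divided by the square root of F. Log2 CPM carry a prior count of 1. Ratios carry a pseudocount of 0.5 and were tested with SciPy 1.17.1. Replicates differed by a chi-square of at least 10.0 per degree of freedom, so no library repeats another. Alternatives were DESeq2 1.42.0, limma-voom (limma 3.58.1), RLE, upper-quartile and somatic marker factors, no filter, at least 10 counts in every library, a replicate block, and leaving out each library.

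The 10 genes and the lists were chosen with earlier results of these data known. Named are all 10 genes, all target mRNAs, the 2 genes of each other list of relatives, partners and germ cell RNA-binding proteins ranked first by adjusted p among the called rises and falls, the 2 nearest profiles of each gene, *Dis3l2* and *Dis3*. *A1cf* was named after its values were seen, and *Mir181c* and *Mir181d* for their overlap with *Nanos3*.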

Additional observations from a re-analysis of the deposited data

How the results depend on the processing

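The 8 genes that fell remained called lower under all 14 alternative fits. Their log2 fold changes ran from -2.85 to -1.13, with *Cpeb1* between -2.85 and -2.30 and *Ythdc2* between -1.68 and -1.13. The deepest value of each came with libraries scaled to somatic cell markers, which made up 1.19% to 1.25% of counts in the control and 1.47% to 1.74% in the KO-labelled libraries. Under that scaling 269 genes were higher and 9550 lower, against 3294 and 3347, so a count of rises depends on how the libraries are scaled. Among the 10 genes 0 were then higher, of relatives 0 were higher and 9 lower, of partners 12 were lower, and of other germ cell RNA-binding proteins 0 were higher. With each library left out in turn, the number of the 10 genes called higher was 0 to 1 and the number of partners called lower was 1 to 3. The sign of *Nanos2* is not settled: its log2 fold change was -0.29 to 0.075 over the fits without 1 library, with values above 0 without control replicate 3 (0.075), KO replicate 1 (0.021) or KO replicate 3 (0.023). With *Dazl* as the reference, the log2 ratios of *Boll* (0.15) and *Rbm46* (0.23) reversed. Same-numbered libraries did not deviate together (correlations of -0.0014, -0.0126 and 0.0139), so the numbers only name libraries. With the replicate number as a block, edgeR called 3271 genes higher and 3290 lower, and of the 10 genes 8 were lower and 1 was higher, as without it. Depth limits *Nanos2* (20 to 36 counts) and *Nanos3* (57 to 144 counts), while the 8 others had at least 273 counts in every library.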

Other observations

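Other cell types of the testis moved beside the 10 genes. Of 7 Leydig cell markers 5 rose (summed 412 to 468 CPM in the control, 624 to 676 CPM in the KO-labelled libraries), and of 5 macrophage markers 4 rose (120 to 139 against 152 to 220 CPM). Of 5 markers of peritubular myoid cells, 3 fell, from a summed 1208 to 1228 CPM to 1020 to 1054 CPM. Of 5 endothelial markers 2 rose and 3 were not called (summed 290 to 323 against 379 to 429 CPM), and of 4 stromal markers 3 rose and 1 was not called (3301 to 4261 against 3958 to 6099 CPM). With libraries scaled to somatic cell markers, 3 Leydig cell markers rose and 1 fell, 0 of the macrophage and stromal markers were called, and 2 of the endothelial and 4 of the peritubular markers fell. All these markers help to set that scaling, so it is no separate check of their changes. Calls are from edgeR as in the results above.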
